A study of Mus musculus with 10 samples.

Results

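Nog, Chrd, Chrdl1, Grem1, Fst, Fstl1, Bmper, Twsg1 and Crim1 are 9 genes that encode secreted or membrane-bound proteins which bind bone morphogenetic proteins (BMPs) or related ligands outside the cell. They were taken by symbol as a group of BMP antagonists and modulators other than Mgp, and all 9 were found among the 27267 genes listed. Of these, 7 had a mean normalized count of at least 10 and belonged to the 13714 genes tested, while Nog and Grem1 lay under that limit. The question was whether other extracellular BMP antagonists rose where Mgp was lost.

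RNA of interscapular brown adipose tissue (iBAT), the thermogenic fat depot between the shoulder blades, was sequenced from 5 wild type (WT) mice and 5 mice labelled Mgp-KO. All 10 were labelled C57BL/6 males of 4 weeks and ate chow. The Mgp-KO mice carry a global deletion, meant to remove Mgp from every cell type, and the knock-out is a model of vascular calcification as well. Each library is whole tissue from a mouse according to the methods, and in such bulk samples fewer cells of a type and less RNA per cell cannot be told apart.

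BMPs are secreted ligands that bind pairs of type I and type II serine/threonine kinase receptors, which phosphorylate SMAD1, SMAD5 and SMAD9. Extracellular antagonists hold the ligand away from its receptors, and their own removal or cleavage frees it again. In brown fat, BMP signalling is known to act on the commitment and maturation of adipocyte progenitors, and matrix Gla protein (MGP) is a vitamin K-dependent matrix protein that binds BMPs.

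Mgp was measured first, as a check of the labels. The WT libraries 1 to 5 held 576, 489, 466, 1146 and 839 normalized counts, which are read counts divided by the size factor of the library. The libraries labelled Mgp-KO 1 to 5 held 0, 0.765, 0.821, 500 and 331. Mgp reads were thus nearly absent in the libraries labelled Mgp-KO 1 to 3 and plainly present in those labelled Mgp-KO 4 and 5, which go against their label. For Mgp, the limma log2 fold change was -8.43 within replicates 1 to 3 (adjusted p = 9.6e-05) and -1.27 within replicates 4 and 5 (adjusted p = 0.679), and limma's interaction of genotype and set had an adjusted p of 0.000251. Mgp was the only gene past the threshold in that interaction, 0.00729% of the tested genes.

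Other features of the libraries touch the values below. Replicates 4 and 5 of both groups held 9253793 to 13281873 reads on genes and 6.50% to 16.7% mitochondrial ribosomal RNA, against 19616366 to 22252260 reads and 0.771% to 1.72% in replicates 1 to 3, and 38.2% of the tested genes differed between these sets in limma. The library WT 2 held Xist reads and almost no Y-linked reads, against its male label. Skeletal muscle markers summed to 39885 and 37286 normalized counts in the libraries labelled Mgp-KO 2 and 5, and to between 45.2 and 6838 in the other 8 libraries. The brown adipocyte markers, Ucp1 and Adipoq among them, were present in every library and summed to 205031 to 404436 in WT and to 142036 to 289517 in the labelled Mgp-KO libraries.

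None of the 7 tested modulators passed an adjusted p of 0.05 over the 10 libraries in limma, where 9 genes in all (0.0656%) did. Mgp itself did not pass in that limma fit either, with a log2 fold change of -5.57 and an adjusted p of 0.236. Bmper was lower in the labelled Mgp-KO libraries without overlap between the groups, a separation shown by 3.5% of the tested genes, Twsg1 was lower with a narrow overlap, and the sparsely read Nog was higher without overlap. Fst was high in 3 labelled Mgp-KO libraries, Fstl1 was low in the first 3, and Chrd, Chrdl1, Crim1 and Grem1 showed no difference beyond the spread of the libraries. Of the 7 fold changes 2 were positive, and their median was -0.32, beside a median of 0.03 over all tested genes, of which 7228 were positive. Within replicates 1 to 3, where Mgp reads were lost, 3 of the 7 were positive and the median was -0.0047, and within replicates 4 and 5 it was -0.18 with 3 positive.

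**Figure D1:**
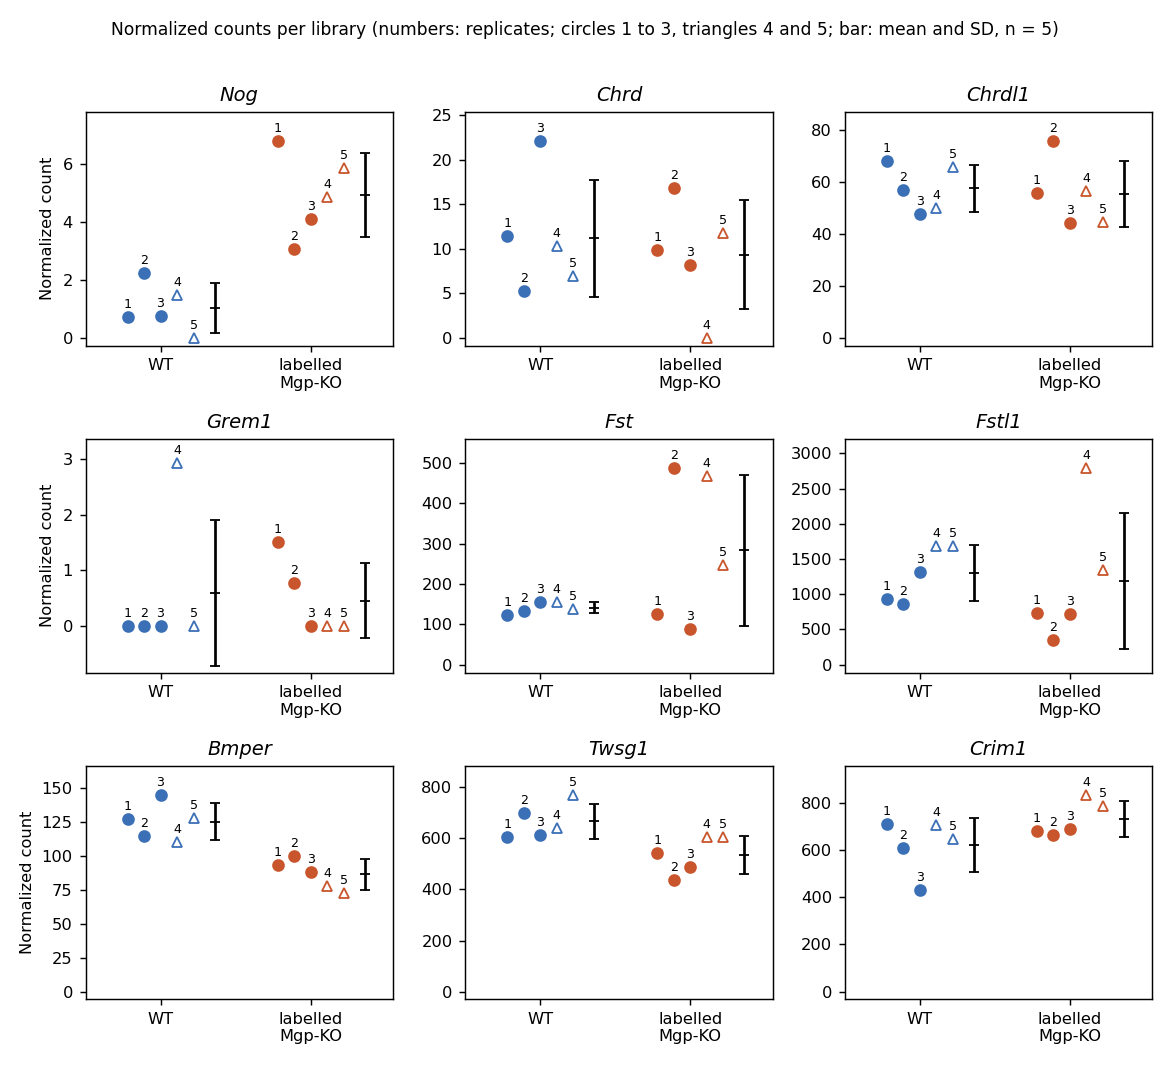
Normalized counts of the 9 modulators in each library (y axis, linear), with WT in blue and labelled Mgp-KO in orange. Circles are replicates 1 to 3, open triangles replicates 4 and 5, and bars give the mean and SD of 5 libraries. Only Nog (0 to 2.25 against 3.06 to 6.78) and Bmper (110 to 145 against 72.7 to 100.2) show no overlap between the groups.

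Promoter sequence is shown for the 2 tested modulators with the lowest exact permutation p over libraries, Bmper and Twsg1, and for Chrd, which holds a BMP-SMAD motif. Each run is the 250 bases before the RefSeq start of the gene, 5′ to 3′ on the strand of the gene, on GRCm38.p6 (mm10). Gene positions elsewhere in the text are those of GENCODE, whose start lies at the same base for Bmper and Chrd, while the Twsg1 run reaches 39 bases past the GENCODE start into the gene. Capitals mark GGCGCC, a motif bound by SMAD1 and SMAD5, and the Bmper and Twsg1 runs hold none. The Bmper run lies at chr9:23222826-23223075 on the plus strand, the Twsg1 run at chr17:65951188-65951437 on the minus strand and the Chrd run at chr16:20732877-20733126 on the plus strand.
Bmper: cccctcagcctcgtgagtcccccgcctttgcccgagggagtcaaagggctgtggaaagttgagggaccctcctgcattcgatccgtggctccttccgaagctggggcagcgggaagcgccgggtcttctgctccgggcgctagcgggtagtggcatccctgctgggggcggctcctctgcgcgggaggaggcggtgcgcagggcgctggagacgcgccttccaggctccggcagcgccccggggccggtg
Twsg1: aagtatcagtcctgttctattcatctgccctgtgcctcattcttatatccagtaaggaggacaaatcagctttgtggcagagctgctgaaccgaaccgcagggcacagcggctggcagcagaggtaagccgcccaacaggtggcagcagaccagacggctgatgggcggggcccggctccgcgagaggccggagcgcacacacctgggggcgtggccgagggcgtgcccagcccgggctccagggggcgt
Chrd: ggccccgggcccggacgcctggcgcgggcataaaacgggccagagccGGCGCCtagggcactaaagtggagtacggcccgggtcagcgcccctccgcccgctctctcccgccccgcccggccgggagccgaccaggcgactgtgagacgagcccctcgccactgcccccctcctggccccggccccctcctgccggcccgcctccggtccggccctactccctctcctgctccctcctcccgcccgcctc

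Promoters were found for 6 of the 9 genes, and those of Nog, Chrdl1 and Fst were not matched. GGCGCC reads the same on both strands. It occurred in the Chrd run, starting 203 bases before the RefSeq start, and in the Grem1 run, starting 78 bases before it, but not in those of Fstl1, Bmper, Twsg1 and Crim1, while 9.59% of 32851 such promoters hold it. The SMAD3 and SMAD4 palindrome GTCTAGAC occurred in none of the 6 (0.167% of all promoters). The shorter CAGAC, searched on both strands, occurred 2 times in the Twsg1 run and 1 time in the Grem1 run (42.2% of all promoters hold it). All 6 runs were richer in G and C (64.4% to 78%) than the median promoter (52.4%).

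The levels of the genes in WT can be compared once divided by the exon length. Per kb of exon, Fstl1 was the highest of the 9 with 264 ± 80.3 normalized counts (SD, n = 5), followed by Twsg1 with 129 ± 13.3 and Crim1 with 103 ± 19.2. Fst with 30.8 ± 3.06, Bmper with 25.9 ± 2.82 and Chrdl1 with 8.53 ± 1.35 came next. Chrd with 1.79 ± 1.05, Nog with 0.609 ± 0.504 and Grem1 with 0.141 ± 0.316 closed the order. Neighbours in this order that overlapped in their WT ranges were Twsg1 (117 to 149) and Crim1 (71.4 to 118), Fst (27.0 to 34.0) and Bmper (22.7 to 30.0), Chrd and Nog, and Nog and Grem1. Mgp itself stood at 592 ± 243 per kb, above each of the 9 in every WT library.

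**Figure D2:**
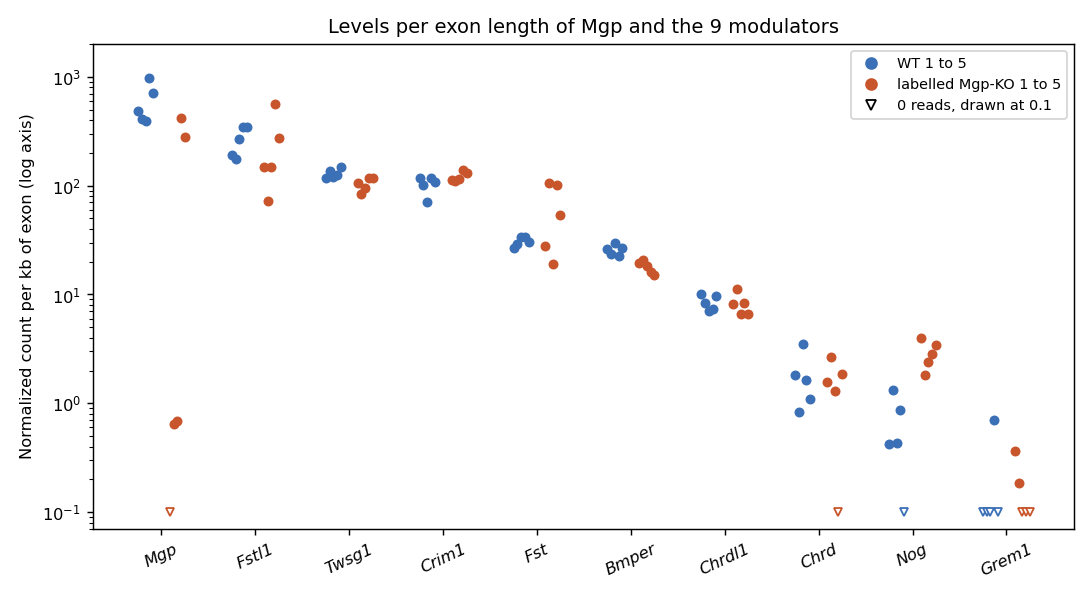
Normalized count per kb of exon (y axis, log scale) of Mgp and the 9 modulators in each library, ordered by the WT mean, with WT in blue and labelled Mgp-KO in orange. Open triangles at the bottom are libraries with 0 reads. Fstl1, Twsg1 and Crim1 lie near or above 100 per kb in most libraries, and Chrd, Nog and Grem1 lie under 5.

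Summed per kb, the 9 modulators reached 492, 476, 534, 652 and 668 in WT 1 to 5, compared with 429, 410, 405, 953 and 603 in labelled Mgp-KO 1 to 5. The sum within replicates 1 to 3 was lower in each labelled Mgp-KO library than in each WT library. Of single tested genes, 30.6% showed such a separation in either direction. Within replicates 4 and 5 the groups overlapped. The group means were 564 ± 90.2 in WT and 560 ± 235 (SD, n = 5) in labelled Mgp-KO. With Mgp added, the sum was 888 to 977 in WT 1 to 3 and 405 to 429 in labelled Mgp-KO 1 to 3, where Mgp added almost nothing, while WT 4 and 5 held 1618 and 1375 and labelled Mgp-KO 4 and 5 held 1375 and 881. Fstl1 was the largest term of the sum in every WT library, and it was lower in labelled Mgp-KO 1 to 3. The separation of the 9 modulators within replicates 1 to 3 rested on Fstl1, since without it the groups overlapped there.

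Noggin is a secreted dimer that covers the receptor-binding faces of BMPs. Nog (chr11:89300638-89302332, minus strand, a single exon) held 0.715, 2.25, 0.735, 1.47 and 0 normalized counts in WT 1 to 5, from 1, 3, 1, 1 and 0 reads. In labelled Mgp-KO 1 to 5 it held 6.78, 3.06, 4.11, 4.86 and 5.86, from 9, 4, 5, 3 and 5 reads. All 5 labelled Mgp-KO libraries were above all WT libraries, including labelled Mgp-KO 4 and 5, in which Mgp was read. Labelled Mgp-KO 4 and WT 2 had the same 3 reads, at the floor of their libraries, and differed in normalized counts only through the size factors. The rate of the 26 reads against the 6 WT reads was 4.36-fold, with a 95% interval of 1.75 to 12.9 that covers counting error only. The exact permutation test over libraries gave the smallest p it can reach with 5 against 5 (two-sided p = 0.00794).

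Nog was below the limit for the main test, and every WT library was at or under the floor of 3 reads (2.15 to 5.19 normalized counts by library). Fitted with all listed genes, its limma log2 fold change was 1.62 ± 0.45 (SE), on the scale of log2(normalized count + 1), with an adjusted p of 0.312. DESeq2 on the recovered reads gave 2.16 and an adjusted p of 0.236. With the same limma fit the difference was 1.35 within replicates 1 to 3 (adjusted p = 0.234) and 2.01 within replicates 4 and 5 (adjusted p = 0.750), so the direction was common to both sets but the call was not made in either.

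Chordin binds BMP2, BMP4 and BMP7 through cysteine-rich domains and is cut by tolloid proteases. Chrd (chr16:20733127-20742384, plus strand) held 11.4, 5.24, 22.1, 10.3 and 6.92 normalized counts in WT 1 to 5. In labelled Mgp-KO 1 to 5 it held 9.80, 16.8, 8.21, 0 and 11.7. The groups overlapped throughout, and the library labelled Mgp-KO 4 had no Chrd read at a floor of 4.86 normalized counts. The limma log2 fold change was -0.56 ± 0.76 (SE; adjusted p = 0.843), with a 95% interval of -2.23 to 1.10, while replicates 1 to 3 alone gave -0.00 and replicates 4 and 5 alone gave -1.40. Exons of Chrd overlap those of Thpo on the opposite strand by 239 bases, and reads of the 2 genes could be shared if the counting did not use strand.

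Chordin-like 1 is a related secreted BMP binder. Chrdl1 (chrX:143285674-143394262, minus strand) held 68.0, 56.9, 47.8, 49.8 and 65.8 normalized counts in WT 1 to 5, compared with 55.8, 75.7, 44.3, 56.7 and 44.5 in labelled Mgp-KO 1 to 5. The ranges of the groups nearly coincided. The limma log2 fold change was -0.07 ± 0.23 (SE; adjusted p = 0.949), with a 95% interval of -0.57 to 0.43.

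Gremlin 1 is a DAN-family antagonist of BMP2 and BMP4. Grem1 (chr2:113746164-113758646, minus strand) had 5 reads in all 10 libraries together, of which 2 were in WT 4, 2 in the library labelled Mgp-KO 1 and 1 in that labelled Mgp-KO 2. At this depth a difference was not detectable, since both groups were under the floor of 3 reads per library.

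Follistatin binds activins nearly irreversibly and some BMPs more weakly. Fst (chr13:114452290-114458951, minus strand) held 124, 133, 156, 155 and 138 normalized counts in WT 1 to 5. The values in labelled Mgp-KO 1 to 5 were 127, 487, 87.9, 468 and 246. The WT libraries lay close together, whereas labelled Mgp-KO 2, 4 and 5 were above all of WT, labelled Mgp-KO 1 was inside the WT range and labelled Mgp-KO 3 below it. The means were 141 ± 14.1 in WT and 283 ± 187 (SD, n = 5) in labelled Mgp-KO, and the limma log2 fold change was 0.70 ± 0.43 (SE; adjusted p = 0.613), with a 95% interval of -0.25 to 1.64.

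The Fst difference within replicates 1 to 3 was 0.36 (limma adjusted p = 0.755), and within replicates 4 and 5 it was 1.21 (limma adjusted p = 0.679; unadjusted p = 0.0242, beside 6.23% of tested genes with an unadjusted p under 0.05). No gene (0%) passed the adjusted threshold within replicates 4 and 5 in limma, and DESeq2 called 50 there. Limma's interaction of genotype and set for Fst had an adjusted p of 0.685. Muscle markers moved with Fst in part: their sums were 39885 and 37286 in labelled Mgp-KO 2 and 5, where Fst was 487 and 246, but 332 in labelled Mgp-KO 4, where Fst was 468. The Fst fold change was 0.30 without labelled Mgp-KO 2 and 5 and 0.32 without labelled Mgp-KO 4 and 5, and leaving out labelled Mgp-KO 2 or 4 alone gave 0.43 or 0.44. The part of muscle RNA in it was not tested. Exons of Fst overlap Gm47040 on the opposite strand by 115 bases.

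Follistatin-like 1 is a secreted glycoprotein related to SPARC that binds BMP4 and is abundant in mesenchymal cells. Fstl1 (chr16:37776873-37836514, plus strand) held 935, 861, 1320, 1686 and 1685 normalized counts in WT 1 to 5. The libraries labelled Mgp-KO 1 to 5 held 731, 355, 723, 2791 and 1345. The libraries labelled Mgp-KO 1 to 3 were below all of WT, labelled Mgp-KO 4 was the highest of the 10, and labelled Mgp-KO 5 was inside the WT range. Over all 10 libraries the limma log2 fold change was -0.42 ± 0.46 (SE; adjusted p = 0.810), with a 95% interval of -1.43 to 0.59. Leaving out labelled Mgp-KO 2 or 4 alone gave -0.07 or -0.81.

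Within replicates 1 to 3, where Mgp reads were absent or nearly so in the labelled Mgp-KO libraries, Fstl1 was 1039 ± 246 in WT and 603 ± 215 (SD, n = 3) in labelled Mgp-KO. The limma log2 fold change there was -0.83 (adjusted p = 0.169), beside 486 genes (3.54%) past the threshold, and DESeq2 gave -0.79 with an adjusted p of 0.0677. Within replicates 4 and 5 the limma difference was 0.20 (adjusted p = 0.882), and limma's interaction of genotype and set had an adjusted p of 0.497. Fstl1 was the only one of the 7 tested modulators that differed between the sets of libraries themselves, beside 38.2% of all tested genes. It was higher in replicates 4 and 5 by 1.24 on the log2 scale in limma (adjusted p = 0.00775). Adipose progenitor markers summed to 25042 to 49827 in WT 1 to 3, compared with 12715 to 24144 in labelled Mgp-KO 1 to 3, lowest in labelled Mgp-KO 2 where Fstl1 was lowest too. In these 6 libraries except labelled Mgp-KO 2, most of that sum came from the collagen genes Col1a1 and Col3a1, with limma log2 fold changes of -1.18 and -1.39 within replicates 1 to 3, whereas 3 of the 11 markers had positive ones, among them Dcn (0.50), which encodes the proteoglycan decorin. The part of these markers in the Fstl1 difference was not tested.

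BMPER, the mouse homologue of crossveinless-2, binds BMPs and chordin and can restrain or promote BMP signalling, and it is known from endothelial cells. Bmper (chr9:23223076-23485200, plus strand) held 127, 115, 145, 110 and 128 normalized counts in WT 1 to 5. The values in labelled Mgp-KO 1 to 5 were 93.5, 100.2, 87.9, 77.7 and 72.7. Every labelled Mgp-KO library was below every WT library, and labelled Mgp-KO 4 and 5, which held Mgp reads, were the lowest. Groups that did not overlap were found for 480 tested genes (3.5%), and Bmper was the only one of the 7 tested modulators among them.

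The mean of Bmper was 125 ± 13.6 in WT and 86.4 ± 11.3 (SD, n = 5) in labelled Mgp-KO. The two-sided exact permutation test gave 0.00794, the smallest p possible with 5 against 5. The limma log2 fold change was -0.53 ± 0.18 (SE), with a 95% interval of -0.92 to -0.14, an unadjusted p of 0.0118 and an adjusted p of 0.298. An unadjusted p under 0.05 was found for 10.4% of the tested genes, and among the 7 modulators for Bmper alone. The difference was -0.45 within replicates 1 to 3 (limma adjusted p = 0.164) and -0.65 within replicates 4 and 5 (limma adjusted p = 0.679).

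With a term for the set of libraries, the limma adjusted p of Bmper was 0.0860, where 324 genes (2.36%) passed the threshold. DESeq2 on the recovered reads gave an adjusted p of 0.129 without the term, where 374 genes (2.26%) were called, and 0.0310 with it, where 1152 genes (7.42%) were called. Bmper was the only modulator called in that last fit, and edgeR gave an adjusted p of 0.284. Brown adipocyte markers moved with Bmper: within each set their sum was lower in every labelled Mgp-KO library than in every WT library, 142036 to 174327 against 205031 to 218950 in replicates 1 to 3 and 199110 to 289518 against 396889 to 404436 in replicates 4 and 5. In replicates 1 to 3 this separation rested on Ucp1, since without that gene labelled Mgp-KO 1 (165389) was above WT 2 (163709), and 2 of the 10 markers had positive fold changes there. The sum of endothelial markers moved the other way within replicates 1 to 3, with 18581 to 21349 in WT and 22309 to 25482 in labelled Mgp-KO, and it was 19191 to 32466 and 30482 to 60812 in replicates 4 and 5, where the groups overlapped. The sums of mural cell markers were 12931 to 18158 in WT and 12099 to 16455 in labelled Mgp-KO. The part of these cell types in the Bmper difference was not tested.

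Twisted gastrulation binds BMPs and chordin and can make their complex tighter or open it to tolloid cleavage. Twsg1 (chr17:65921972-65951226, minus strand) held 605.2, 700.1, 614.6, 642 and 770 normalized counts in WT 1 to 5. The libraries labelled Mgp-KO 1 to 5 held 543, 435, 489, 605.4 and 604.9. The groups overlapped only by the narrow margin of WT 1 and labelled Mgp-KO 4. The means were 666 ± 68.7 in WT and 536 ± 74.0 in labelled Mgp-KO (SD, n = 5; two-sided exact permutation p = 0.0159).

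For Twsg1, the limma log2 fold change was -0.32 ± 0.16 (SE; adjusted p = 0.526), with a 95% interval of -0.67 to 0.03. Within replicates 1 to 3 it was -0.39 (limma adjusted p = 0.145) and within replicates 4 and 5 it was -0.22 (limma adjusted p = 0.822). With a term for the set the limma adjusted p was 0.188, and DESeq2 with that term gave 0.0963. Twsg1 therefore passed in none of these fits, while its direction was common to both sets.

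CRIM1 is a membrane protein with chordin-like repeats that binds BMPs in the cell that makes them, and it is known from endothelial and kidney cells. Crim1 (chr17:78200248-78376592, plus strand) held 709, 608, 428, 705 and 647 normalized counts in WT 1 to 5, compared with 680, 663, 690, 832 and 787 in labelled Mgp-KO 1 to 5. WT 3 was the lowest of all libraries and labelled Mgp-KO 4 and 5 the highest, and the ranges overlapped. The means were 619 ± 115 in WT and 730 ± 74.5 in labelled Mgp-KO (SD, n = 5; two-sided exact permutation p = 0.111). The limma log2 fold change was 0.25 ± 0.18 (SE; adjusted p = 0.666), with a 95% interval of -0.14 to 0.65, while replicates 1 to 3 alone gave 0.25 and replicates 4 and 5 alone gave 0.26. Exons of Crim1 overlap those of Fez2 on the opposite strand by 123 bases.

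**Figure D3:**
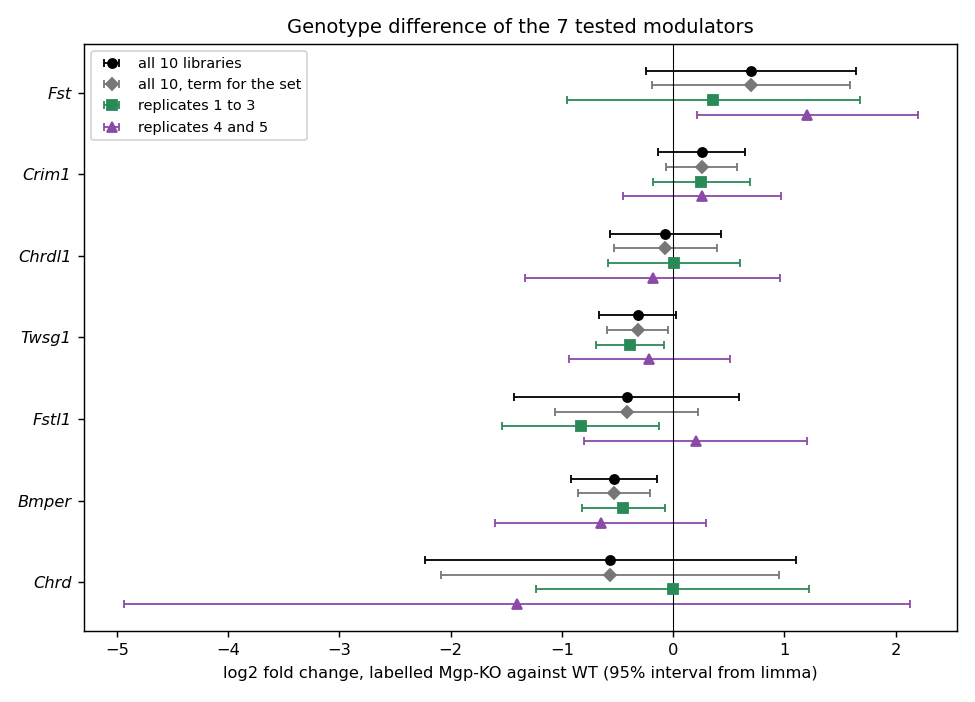
Log2 fold change of the 7 tested modulators, labelled Mgp-KO against WT (x axis, with 95% intervals from limma), fitted to the 10 libraries, to the 10 with the set as a covariate, and to replicates 1 to 3 or 4 and 5 alone. The intervals of Bmper over the 10 libraries (-0.92 to -0.14) and with the set term exclude 0, as does that of Twsg1 with the set term. Those of Bmper, Twsg1 and Fstl1 within replicates 1 to 3 and of Fst within replicates 4 and 5 exclude 0 too. Those of Crim1, Chrdl1 and Chrd include 0 in every fit. The intervals are not adjusted for the number of genes tested.

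Within replicates 1 to 3 alone, Nog was higher and Fstl1, Bmper and Twsg1 were lower in all 3 labelled Mgp-KO libraries than in all 3 WT libraries, and 30.6% of the tested genes showed such a separation. The same 4 genes were separate from all 5 WT libraries when labelled Mgp-KO 4 and 5 were left out, as were 17.7% of the tested genes. In the limma fit within replicates 1 to 3, the same 3 lower genes had an unadjusted p under 0.05 (22% of tested genes). No modulator passed the adjusted threshold in that fit. Within replicates 4 and 5, Nog, Fst and Crim1 were higher and Bmper and Twsg1 lower without overlap, beside 41.6% of tested genes. An exact permutation test cannot go below p = 0.1 with 3 against 3 or below 0.333 with 2 against 2. With the set term, Bmper and Twsg1 had an unadjusted limma p under 0.05 over the 10 libraries, beside 19.3% of tested genes.

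For each tested modulator, the genes with the most similar pattern over the 10 libraries were found by Pearson's r of log2(normalized count + 1), after subtracting the mean of each set. They are given as a description, since the libraries share genotype, tissue makeup and depth. Bmper was most like Tbl2, Orai3 and Foxk2 (r from 0.968 to 0.978), and Twsg1 was most like Prnp, Rnf24 and Pnpla3 (0.951 to 0.961). Fstl1 was most like Sparc, Rcn1 and Fabp5 (0.979 to 0.981), of which Sparc encodes the matrix protein that gives the SPARC family its name. Fst was most like Llgl2, Mcm4 and Nup155 (0.954 to 0.963), of which Mcm4 encodes a subunit of the replicative helicase. Crim1 was most like 2810029C07Rik and Gm37472 (0.917 to 0.929), Chrd like Azin2, Gm7832 and Klhdc2 (0.962 to 0.971) and Chrdl1 like Tmem167, Eapp and Pik3r1 (0.909 to 0.953).

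The other genes of the pathway were taken from lists, and no gene on them passed the limma threshold over the 10 libraries. EdgeR called none either. DESeq2 called 1 further antagonist, 1 ligand and 1 target gene, beside 2.26% of all genes, and with a set term 3, 2 and 1 of them, beside 7.42%. Of 17 further antagonists and modulators 15 were listed and 11 tested, 4 with a positive fold change, and their median was -0.34 including Mgp. An unadjusted limma p under 0.05 was found for 5 of them, 1 higher and 4 lower, beside 10.4% of all tested genes. The 4 lower genes include Mgp, which the knock-out is meant to remove, so this count does not describe the further antagonists alone. Mgp and Smoc1 were the 2 of the 11 that passed within replicates 1 to 3, both lower, beside 3.54% of all tested genes. SMOC1 is a secreted calcium-binding matrix protein that antagonises BMP signalling, and Smoc1 held 854, 1176, 1594, 819 and 1807 normalized counts in WT 1 to 5 against 491, 421, 503, 418 and 621 in labelled Mgp-KO 1 to 5. The groups did not overlap, and the limma log2 fold change was -1.29 ± 0.25 (SE; adjusted p = 0.0610) over all 10 libraries, -1.31 within replicates 1 to 3 (adjusted p = 0.0291) and past the threshold with the set term (adjusted p = 0.0198). The largest positive fold change in this list was that of Fstl3, a secreted activin binder, with 0.79 (limma adjusted p = 0.585).

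Bambi, named after its values were seen, encodes a membrane pseudoreceptor that blocks BMP and TGF-beta receptors. It ranged from 31.1 to 42.6 normalized counts in WT and from 49.2 to 82.6 in labelled Mgp-KO, without overlap, with a limma log2 fold change of 0.66 (adjusted p = 0.301). Of the tolloid-type proteases that cleave chordin, 2 of 3 were tested and neither passed, and neither had an unadjusted limma p under 0.05 over the 10 libraries. In limma, Tll1 had a log2 fold change of 0.36 (adjusted p = 0.841) and Bmp1 one of -0.32 (adjusted p = 0.705). Bmp1 was lower without overlap within replicates 1 to 3 (limma log2 fold change -0.77, adjusted p = 0.0748).

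Of 20 BMP, GDF and activin ligand genes, 17 were listed and 11 tested, 8 of them with a positive fold change, and the median was 0.33. Inha and Bmp4 were the 2 of the 11 with an unadjusted limma p under 0.05, beside 10.4% of all tested genes. Inha, the inhibin alpha subunit, had the largest positive fold change, 2.35 in limma over the 10 libraries (adjusted p = 0.357), and passed with the set term (adjusted p = 0.0423). Its counts were low, at most 5.99 in WT and 4.69 to 72.7 in labelled Mgp-KO. Bmp4, a ligand bound by MGP and by several of the 9 modulators and named after its values were seen, ranged from 4.49 to 15.0 in WT and from 17.3 to 34.4 in labelled Mgp-KO without overlap, with a limma log2 fold change of 1.41 (adjusted p = 0.203). The most negative was Bmp2 with -0.18 (limma adjusted p = 0.869).

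Of 15 receptor and SMAD genes 14 were listed and 13 tested, and none passed in a limma fit over the 10 libraries or within either set. Their fold changes ran from -0.25 for the type I receptor Bmpr1a (limma adjusted p = 0.820) to 0.80 for the signal transducer Smad1 (limma adjusted p = 0.414), with a median of 0.13, and Smad1 was the 1 of the 13 with an unadjusted limma p under 0.05, near that share of 10.4%. All 8 targets of BMP and SMAD signalling were tested, 6 with a positive fold change, and the median was 0.34, with Id4 the 1 of the 8 whose unadjusted limma p was under 0.05, also near 10.4%. Within replicates 1 to 3 only 4 of the 8 were positive and the median was -0.07, whereas within replicates 4 and 5, where the labelled Mgp-KO libraries held Mgp reads, all 8 were positive (7056 of the 13714 tested genes) with a median of 0.91 and none passed. The summed targets there were 9015 in labelled Mgp-KO 4, which also held the most mitochondrial ribosomal RNA and the highest endothelial sum (60812), but 4061 in labelled Mgp-KO 5, between WT 5 (2378) and WT 4 (4610). Id4, an inhibitor of basic helix-loop-helix factors, held 31.6 to 47.9 normalized counts in WT and 64.5 to 135 in labelled Mgp-KO without overlap. Its limma log2 fold change was 1.31 ± 0.26 (SE; adjusted p = 0.0647), and it passed within replicates 1 to 3 with 1.60 (adjusted p = 0.0192) and with the set term (adjusted p = 0.0162).

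Smad6, which encodes an inhibitory SMAD, moved the other way within replicates 1 to 3. It held 240, 256 and 301 normalized counts in WT 1 to 3, compared with 123, 109 and 154 in labelled Mgp-KO 1 to 3 (limma log2 fold change -1.05, adjusted p = 0.0296). Over all 10 libraries it was -0.55 (limma adjusted p = 0.616).

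**Figure D4:**
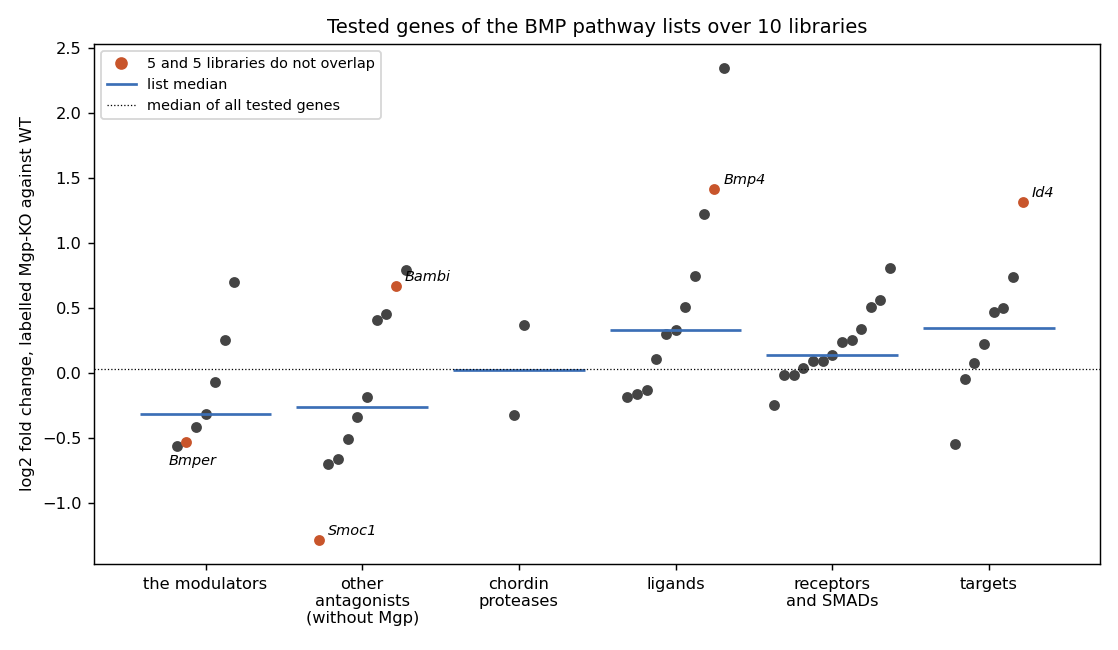
Log2 fold change over 10 libraries, labelled Mgp-KO against WT (y axis), of each tested gene in 6 BMP pathway lists. Blue lines are list medians, the dotted line is the median of all tested genes, orange points are genes whose groups do not overlap, and Mgp (-5.57) is left out. Among the modulators Bmper alone is orange, and 5 of 7 points lie below 0.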

How the data were processed

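Total RNA of iBAT from 5 WT and 5 labelled Mgp-KO mice was sequenced, and groups and replicate numbers came from the sample labels. Per the methods and the submitters' processing notes, the authors mapped single reads to mm10 with STAR, counted them on genes and divided each library by a DESeq2 size factor. The deposited values are therefore a signal of normalized counts. The annotation release and strand setting are not given in the sources used here. Every deposited value (100%) equalled a whole number of reads within 0.00181 reads, and these recovered reads entered DESeq2 and edgeR.

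The main test was limma-trend on log2(normalized count + 1) for genes with a mean of at least 10, with Benjamini-Hochberg adjustment over 13714 genes and a threshold of adjusted p under 0.05, without a block, over 10 libraries, within replicates 1 to 3 and within replicates 4 and 5. Single genes were compared by two-sided exact permutation tests. P-values measure the spread between these libraries, each taken as a mouse. Fold changes on this scale understate low genes. The script was tested on simulated data. Tools were R 4.3.3, limma 3.58.1, edgeR 4.0.16 and DESeq2 1.42.0.

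The members and lists were chosen with earlier results of these data known. Named genes were the members, Mgp, pathway-list genes past the threshold in a limma fit the text uses, the largest fold change of each pathway list in either direction and the 3 genes most like each tested member, of which 1 is not reported here; cell type markers were given by list. Bambi, Bmp4, Xist, Ucp1, Adipoq, Esam, Col1a1, Col3a1 and Dcn were named after their values were seen. Gene coordinates and exon lengths came from GENCODE on GRCm38 (mm10). Alternatives were pseudocounts of 0.5 and 10, no filter, a mean of at least 50, a replicate block, a set term, quantile normalization, edgeR, DESeq2 and leaving out libraries. Leaving out WT 2 with labelled Mgp-KO 4 and 5, and leaving out labelled Mgp-KO 2 and 5, were chosen after seeing the data. Reads range from 9253793 to 22252260 per library. Limma intervals reflect the spread between libraries, and the interval of the Nog read rate and floors of 3 reads reflect counting error alone. PCR copies were not collapsed by molecular identifiers, so that interval and those floors can understate even the counting error.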

Additional observations from a re-analysis of the deposited data

Results flagged for a closer look

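A sample far from the others of its group was seen in 8 of the 102 groups of libraries examined, in 7 named genes, and chance gives about 1 such sample in 20 groups. For Grem1, WT 4 with 2.93 normalized counts stood apart from 4 WT libraries at 0, a gap equal to the whole range (1), but it rests on 2 reads. For Inha, labelled Mgp-KO 2 with 72.7 lay 0.815 of the range from the nearest library at 17.2. For Smad1, the highest labelled Mgp-KO library held 1358 against 604 in the nearest, a gap of 0.777 of the range. For Xist, WT 2 held 5094 against 44.0 in the nearest WT library (0.992 of the range). The endothelial marker Esam was highest at 1716 against 949 in WT (0.804) and at 3657 against 1558 in labelled Mgp-KO (0.829). Among the genes with a pattern like that of a modulator, Gm7832 reached 46.9 against 11.5 in labelled Mgp-KO (0.851) and Prnp 1909 against 1295 in WT (0.723).

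The genotype difference of Mgp differed between the sets of replicates, by 7.16 on the log2 scale in the limma interaction (adjusted p = 0.000251). No modulator passed the threshold in that test, where the lowest adjusted p of the 7 was 0.497 for Fstl1.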

How the results depend on the processing

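The fit over 10 libraries was run under 23 other settings. No modulator passed the threshold in 22 of them, and 1 (Bmper) passed in DESeq2 with a set term. The directions of Bmper (-0.60 to -0.40, adjusted p from 0.0310 to 0.559), Twsg1 (-0.45 to -0.25), Fst (0.30 to 1.04), Fstl1 (-1.26 to -0.07), Crim1 (0.13 to 0.31) and Nog (1.62 to 2.17 in the 3 settings that kept it) did not turn. Chrdl1 and Chrd turned: leaving out single libraries, their fold changes ran from -0.19 to 0.00186 and from -0.88 to 0.16, and without labelled Mgp-KO 4 and 5 they were 0.00383 and 0.14. Without WT 2 as well, Chrdl1 was 0.00272, while Chrd was negative again with -0.063. The cause was not tested.

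Genes past the threshold, 9 in limma, numbered 29 with a pseudocount of 10, 1 with no filter, 15 with a mean of at least 50, 324 with a set term, 34 after quantile normalization, 3 in edgeR, 374 in DESeq2, 1152 in DESeq2 with a set term and 0 to 93 without single libraries. Leaving out in turn WT 2, WT 3, WT 5, labelled Mgp-KO 1 or labelled Mgp-KO 3 gave a count of 0, against 5 without labelled Mgp-KO 5, 34 without WT 4 and 93 without labelled Mgp-KO 4. They numbered 267 without labelled Mgp-KO 4 and 5, 97 without WT 2 as well and 0 without labelled Mgp-KO 2 and 5. Within replicates 1 to 3 the 486 genes became 127 with no filter, 1348 in DESeq2 and 26 without WT 2 to 811 without labelled Mgp-KO 2 when single libraries were left out, and within replicates 4 and 5 DESeq2 called 50. Without labelled Mgp-KO 4 and 5, 4 modulators did not overlap, against 2, and the share of tested genes without overlap was 17.7%, against 3.5%. Both counts of modulators include Nog, which is not among the tested genes, and no share for genes as sparsely read was taken.

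The methods speak of 5 pairs of mice without saying that the replicate numbers mark them, and the values did not show a pairing by number: the deviations of same-numbered libraries correlated with r from 0.0559 to 0.527 (mean 0.390, against 0.416 for other numbers of the same set), and only replicates 4 and 5 matched their own number best. A replicate block gave 270 genes over 10 libraries and 265 within replicates 1 to 3, and no modulator. Depth limits Nog, Grem1 and Chrd, which had 32, 5 and 119 reads in all.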

Other observations

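Marker lists of the other cell types of the depot gave the following sums of normalized counts. Schwann cell markers summed to 2075 to 3162 in WT and to 1256 to 3699 in labelled Mgp-KO. Of these 6 markers 1 passed within replicates 1 to 3 in limma, lower, beside 3.54% of all tested genes. Myeloid markers summed to 1372 to 2101 in WT and to 1491 to 2164 in labelled Mgp-KO, and none of 10 passed in the limma fits over the 10 libraries or within either set, none of which used a replicate block. Of the mural, endothelial and adipose progenitor markers none passed in those fits either. Over the 10 libraries, 1 of 10 mural, 0 endothelial and 3 of 11 progenitor markers had an unadjusted limma p under 0.05, all lower. Among all tested genes the share was 10.4%. All 10 endothelial markers had a positive fold change over the 10 libraries, and with the replicate block 1 of them, Esam, passed in limma (adjusted p = 0.0478), higher. Of the 10 brown adipocyte markers 2 passed within replicates 1 to 3 in limma, both lower, beside 3.54% of all tested genes. None of the 9 tested skeletal muscle markers passed in those fits.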
